A study of Mus musculus with 15 samples.

Results

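RNA sequencing of 266-6 cells, a mouse pancreatic acinar line, compared 3 libraries treated with 9-cis retinoic acid with 3 treated with the vehicle DMSO. These 6 of the 15 libraries of the series were taken by the treatment in their labels, and every gene with enough reads was tested, 16736 of the 43432 identifiers in the table. The line was cloned from a tumour of a mouse whose acinar cells carried an elastase promoter driving a viral T antigen, and it still makes part of the digestive enzyme set. The other groups, also of 3 libraries each, received AM580, CD3254, or both of them (AM+CD). Every group spent 24 h in stripped medium before its 24 h with ligand or vehicle, in cultures otherwise fed with 10% serum. The sources used here give neither the ligand doses nor whether replicates were grown as separate cultures. The p-values therefore compare groups with a spread between samples that may be technical only.

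9-cis Retinoic acid is a retinoid that activates both families of retinoid receptor, the RARs and the RXRs. RAR-RXR heterodimers bind paired hexamers of DNA near their target genes and exchange corepressors for coactivators when ligand binds, while RXRs also pair with the liver X receptors (LXR) and the peroxisome proliferator-activated receptors (PPAR). Many of the best known RAR targets limit the signal itself: CYP26 enzymes oxidise retinoic acid and DHRS3 returns retinaldehyde to retinol. AM580 is a synthetic agonist selective for RARα, and CD3254 is a synthetic RXR agonist.

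The Rarb gene, which encodes the receptor RARβ, is the textbook case of a RAR target that carries its response element at its own start, and its promoter is shown for that reason. The window comes from RefSeq on GRCm38.p6, chr14:16575427-16575726 on the minus strand, and runs 5′ to 3′ from 250 bases before to 50 bases after a transcript start that lies inside the annotated gene. Capitals mark the 2 hexamers of a direct repeat and lower case the 5 bases between them.

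Rarb: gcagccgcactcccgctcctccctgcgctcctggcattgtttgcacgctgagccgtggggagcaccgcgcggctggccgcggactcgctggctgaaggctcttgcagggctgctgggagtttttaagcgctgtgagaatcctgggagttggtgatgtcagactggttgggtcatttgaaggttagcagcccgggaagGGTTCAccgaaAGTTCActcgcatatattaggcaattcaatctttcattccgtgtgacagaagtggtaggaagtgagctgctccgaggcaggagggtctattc

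The repeat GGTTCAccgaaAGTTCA sits 53 to 37 bases before that start. It was found by searching both strands for pairs of the hexamers AGGTCA (the consensus), AGTTCA (a variant), GGGTCA (likewise) or GGTTCA (likewise), where a pair with 5 bases between them occurred in 32 of 32851 promoter windows (0.0974%). Of the 24 genes looked up, 19 had a window. The windows of Cyp26b1, Dhrs3 (3 windows), Fmo5, Enpp1, Itga2, Adh1 and Cd38, all described below, held no such pair with 1, 2 or 5 bases between the hexamers, which says only that these letters are not in those 300 bases.

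The 9-cis retinoic acid libraries held 35726626, 46801058 and 14600962 reads in genes (replicates 1, 2 and 3) and the DMSO libraries 37958572, 32939254 and 37569644. Of the acinar enzyme genes, Ctrb1 was at 3867, 5930 and 7058 CPM (reads per library total scaled by TMM factors) with 9-cis retinoic acid and 4425, 6979 and 5660 CPM with DMSO, and Cpa1 at 483 to 846 CPM and 379 to 713 CPM. The pancreatic lipase gene Pnlip stayed at or below 0.543 CPM, Amy2a5 was at 0, and so were the islet hormone genes Ins1, Gcg and Sst in all 6 libraries. Other endocrine genes had reads, among them Chga at 250 to 352 CPM and Chgb at 85.9 to 162 CPM. The hormone genes Ppy and Ghrl reached 0.461 and 0.598 CPM. The first principal component of log2 CPM carried 48.3% of the variance over the 15 libraries and set 5 of them apart, 1 per treatment, among them replicate 1 of each of these groups. Genes induced by low oxygen summed to 19258, 3695 and 4630 CPM with 9-cis retinoic acid and 17145, 3708 and 3577 CPM with DMSO, in replicate order, so replicate 1 stood high on both sides. The library set is a term in every test here unless stated. Replicate 3 of 9-cis retinoic acid stood apart on the second component: rRNA-like genes took 18.5% of its gene reads and no more than 2.05% of those of the other 14 libraries, and clustered histone genes summed to 318 CPM in it, against 18.8 and 24.6 CPM in the other 2 libraries of its group and 18.8 to 24.7 CPM with DMSO. Many results are given with and without it, and the other test results include it unless stated.

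With 9-cis retinoic acid 5 genes rose and 0 fell (edgeR quasi-likelihood test, Benjamini-Hochberg adjustment, false discovery rate or FDR under 0.05). They were Cyp26b1 and Dhrs3, for enzymes that limit retinoic acid, the receptor gene Rarb, the flavin monooxygenase gene Fmo5 and the ectonucleotidase gene Enpp1. They make up 0.0299% of the genes tested. At an unadjusted p under 0.05 there were 665 genes (3.97%), of which 264 (1.58%) lay lower and 401 (2.4%) higher. Without replicate 3 of 9-cis retinoic acid the balance turned, with 366 lower and 310 higher. DESeq2 called 5 genes lower and 18 higher, and limma's voom with quality weights 19 lower and 40 higher. Without that library 4 genes (0.0239%) rose, and Rarb was no longer called. Without the library set term 0 genes passed in edgeR (243 at an unadjusted p under 0.05, smallest FDR 0.174), while DESeq2 without it called 10. With replicate number as a block, which pairs same-numbered libraries, 5 genes rose over the 15 libraries, with Itga2 in place of Rarb, and 3 rose in the 6 libraries alone, namely Dhrs3, Itga2 and Cyp26b1.

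**Figure D1:**
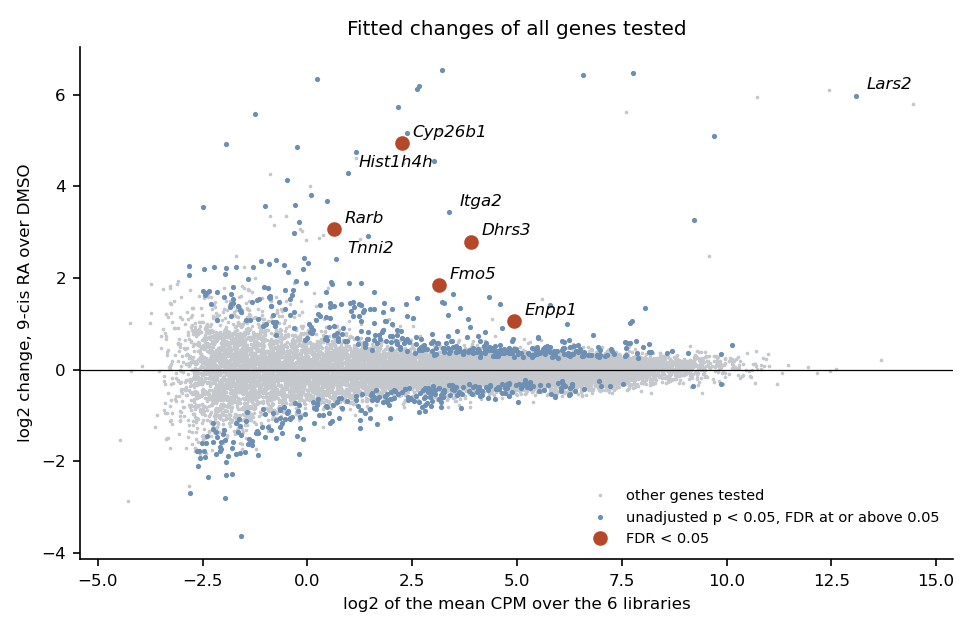
Fitted log2 change, 9-cis retinoic acid over DMSO, of each of the 16736 genes tested against the log2 of its mean CPM over the 6 libraries. The 5 called genes (large points) all lie above 0, with Cyp26b1 highest at 4.94, while histone and rRNA-like genes such as Hist1h4h (4.29) and Lars2 (5.97) lie as high without a call.

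Cyp26b1 (ENSMUSG00000063415, chr6:84571414-84593908, minus strand), whose product oxidises retinoic acid, had the largest called change. Its levels were 16.8, 3.58 and 7.35 CPM with 9-cis retinoic acid and 0.659, 0.211 and 0.0503 CPM with DMSO. The lowest treated library was thus above the highest vehicle library, although each group spread widely and replicate 1 was highest in both. The log2 change was 4.94 ± 0.36 (SE; edgeR FDR = 3.4e-05), with an interval from 4.16 to 5.72. It rests on DMSO counts of 26, 7 and 2 reads. The log2 difference was 4.56, 3.78 and 6.16 in the pairs of replicates 1, 2 and 3, so it was positive in each. Without replicate 3 of 9-cis retinoic acid the change was 4.69 (FDR = 7.72e-05), and in the 10 libraries of the larger set alone it was 5.35 (FDR = 0.0147).

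Dhrs3 (ENSMUSG00000066026, chr4:144892827-144928209, plus strand), which encodes a retinaldehyde reductase, stood at 35.2, 17.8 and 25.5 CPM with 9-cis retinoic acid and at 5.24, 2.60 and 3.54 CPM with DMSO. The groups were far apart and both had replicate 1 highest and replicate 2 lowest. The log2 change was 2.79 ± 0.23 (FDR = 7.47e-05) and the 3 pairs differed by 2.73, 2.75 and 2.83. Without replicate 3 the change was 2.56 (FDR = 0.000168), and in the larger set alone 2.80 (FDR = 0.00488). Leaving out each of the 6 libraries in turn kept both Cyp26b1 and Dhrs3 called.

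Rarb (ENSMUSG00000017491, chr14:16430839-16819156, minus strand) was at 3.33, 2.15 and 2.82 CPM with 9-cis retinoic acid and at 0.203, 0.393 and 0.402 CPM with DMSO. The treated libraries lay close together, and the DMSO levels come from 8, 13 and 16 reads. The log2 change was 3.07 ± 0.45 (FDR = 0.0296), with pair differences of 3.73, 2.31 and 2.66. Its size held without replicate 3, at 3.08, but the call did not (FDR = 0.12), nor did it with the replicate block (FDR = 0.0557) or without any 1 library other than replicate 2 of 9-cis retinoic acid (FDR up to 0.298). Within the 10 libraries of the larger set it was called at a log2 change of 2.61 (FDR = 0.0306).

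Fmo5 (ENSMUSG00000028088, chr3:97628804-97655282, plus strand), for a flavin-containing monooxygenase, had 9.38, 15.2 and 17.2 CPM with 9-cis retinoic acid and 3.37, 4.38 and 3.42 CPM with DMSO. Replicate 1 was the lowest treated library and still more than any DMSO library. The log2 change was 1.85 ± 0.20 (FDR = 0.00118), 1.79 without replicate 3 (FDR = 0.0082) and 2.05 in the larger set alone (FDR = 0.0147). In the 6 libraries alone with the replicate block its call was lost (FDR = 0.101). The other 3 flavin monooxygenase genes tested lay below 0, Fmo4 at a log2 change of -0.54 ± 0.25 (FDR = 0.98), Fmo2 at -0.38 ± 0.23 and Fmo1 at -0.31 ± 0.40, and none passed the test.

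Enpp1 (ENSMUSG00000037370, chr10:24637914-24712159, minus strand), whose product cleaves extracellular ATP to AMP and pyrophosphate, had the tightest levels of the called genes. They were 37.2, 37.3 and 48.9 CPM with 9-cis retinoic acid and 19.2, 19.4 and 20.6 CPM with DMSO, with replicate 3 highest in both groups. The log2 change was 1.05 ± 0.13 (FDR = 0.00579), and 0.92 without replicate 3 (FDR = 0.021). The call was lost without any 1 of the DMSO libraries (FDR up to 0.0671), in the larger set alone (1.10, FDR = 0.115) and in the 6 libraries with the replicate block (FDR = 0.113).

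Just beyond the threshold lay Itga2, Adh1, Pim3 and Cd38. Itga2 (chr13:114833081-114932100), for the integrin α2 subunit of a collagen receptor, was at 19.6, 8.60 and 28.7 CPM with 9-cis retinoic acid and 2.71, 0.876 and 1.89 CPM with DMSO. The groups did not overlap, and pairs differed by 2.83, 3.22 and 3.89. Its log2 change of 3.44 ± 0.55 had an FDR of 0.0577, or 2.73 with an FDR of 0.153 without replicate 3, and 3.70 with an FDR of 0.415 in the larger set alone. With the replicate block it was called, at an FDR of 0.033 over 15 libraries and 0.00848 over 6. Adh1 (chr3:138260991-138290698), an alcohol dehydrogenase that oxidises retinol, was at 80.4, 111 and 97.8 CPM with 9-cis retinoic acid and 33.7, 58.6 and 54.4 CPM with DMSO, a log2 change of 0.99 ± 0.16 (FDR = 0.0577). Cd38 (chr5:43868553-43912375), for an enzyme that hydrolyses NAD, had 2.66, 5.34 and 3.51 CPM with 9-cis retinoic acid and 1.09, 1.30 and 0.653 CPM with DMSO, a log2 change of 1.89 ± 0.32 (FDR = 0.0734). The kinase gene Pim3, chosen after its values were seen, had 230, 354 and 293 CPM with 9-cis retinoic acid and 142, 156 and 121 CPM with DMSO (log2 change 1.05 ± 0.18, FDR = 0.0734). These 4 genes were among the 2.15% of all genes tested whose treated libraries all lay above the DMSO libraries. DESeq2 called each of them with and without the library set term, but edgeR without that term gave each an FDR of 0.55. Without replicate 3 of 9-cis retinoic acid, Adh1, Cd38 and Pim3 each had an FDR of 0.153. With each of the 6 libraries left out in turn, those 3 were called in 0 fits (FDR up to 0.35, 0.578 and 0.553) and Itga2 in 1.

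**Figure D2:**
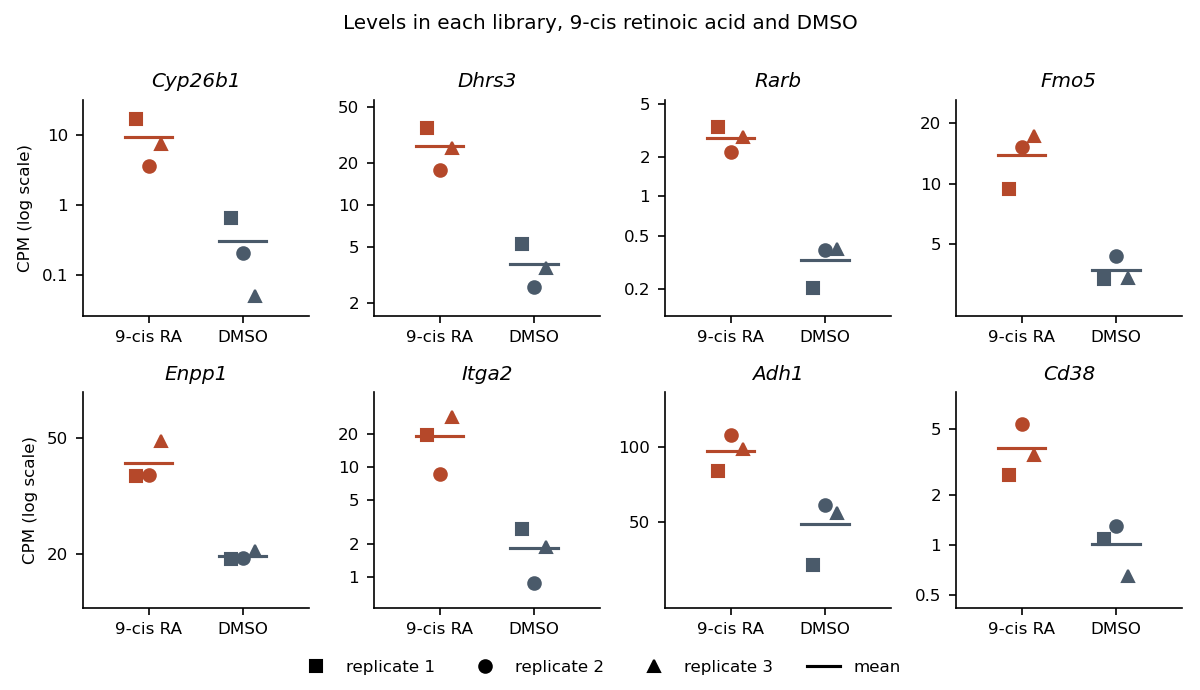
CPM on a log scale of 8 genes in each 9-cis retinoic acid (left) and DMSO (right) library, with a symbol per replicate and a line at the group mean. In each panel every treated library lies above every DMSO library, by the most in Cyp26b1 and by the least in Adh1, where the closest values are 80.4 and 58.6 CPM.

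The retinoid pathway was followed from retinol inwards. Of 13 genes for the conversion of retinol and retinaldehyde that were tested, 7 lay above 0 and 6 below, with a median log2 change of 0.02, against 0.01 over all genes. Dhrs3 rose, Adh1 was just short of a call, and Bco1, whose product cleaves β-carotene to retinaldehyde, was lower at an unadjusted p of 0.0285 (log2 change -0.96 ± 0.39, FDR = 0.98). Rdh10, the main retinol dehydrogenase of the embryo, was at 11.3, 15.6 and 16.8 CPM with 9-cis retinoic acid and 11.2, 14.6 and 15.1 CPM with DMSO, and Rdh11 at 47.7 to 48.9 CPM and 43.8 to 51.7 CPM, so both overlapped throughout. A further 8 genes of this list had too few reads to test.

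None of the 4 tested genes on the list for retinoic acid synthesis (Aldh1a1, Aldh1a2, Aldh1a3 and Aldh1a7) passed, and none reached an unadjusted p of 0.05 (edgeR). Aldh1a2 was the highest of them per length, at 5.72, 2.87 and 2.87 CPM per kilobase of exon with 9-cis retinoic acid and 5.09, 3.65 and 3.59 with DMSO, and its log2 change was -0.16 ± 0.17. Aldh1a3 had a log2 change of -0.16 ± 0.21 and Aldh1a1 of -0.30 ± 0.50, while Aldh1a7 lay above 0, at 0.86 ± 0.75. Of the 3 genes for enzymes that degrade retinoic acid, Cyp26b1 alone had enough reads to test. Cyp26a1 had at most 3 reads in any library of either group and Cyp26c1 at most 1.

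Of the 6 receptor genes, 5 were tested and all lay above 0, or 3 without replicate 3, with Rarb called and a median log2 change of 0.23, which was 0.09 without replicate 3. Rxrg had at most 1 read in any library. Per kilobase of exon, Rxrb was highest, at 28.2, 31.8 and 30.8 CPM with 9-cis retinoic acid and 22.7, 30.2 and 24.4 with DMSO. Rxra followed at 10.9, 14.8 and 21.8 and at 13.1, 16.2 and 15.4, and its treated levels overlapped those of Rarg, at 12.1, 6.44 and 8.29 against 9.91, 6.25 and 6.16. Rara was at 6.67, 3.39 and 4.47 with 9-cis retinoic acid and 5.74, 3.59 and 3.54 with DMSO, below Rarg in each library. Rarb remained the lowest receptor of the 5 after treatment, at 0.633, 0.408 and 0.536 CPM per kilobase, against 0.0385, 0.0746 and 0.0764 with DMSO. The log2 changes of Rara, Rarg, Rxra and Rxrb were 0.15 ± 0.17, 0.25 ± 0.18, 0.06 ± 0.16 and 0.23 ± 0.16, none past the test. Without replicate 3 they were -0.01, 0.09, -0.19 and 0.21.

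A wider list of 27 tested RAR targets from other tissues and cell types held 18 genes above 0 and 9 below, where 52% of all genes lay above 0. The 3 called members were Cyp26b1, Dhrs3 and Rarb, and Cd38, Tgm2 and Gprc5a were higher at an unadjusted p under 0.05 only. Tgm2, for tissue transglutaminase, had 33.6, 14.6 and 56.5 CPM with 9-cis retinoic acid and 15.5, 6.85 and 17.3 CPM with DMSO, and its log2 change of 1.44 ± 0.56 was 0.49 without replicate 3 (unadjusted p = 0.331). Gprc5a, first described as a retinoic acid-induced gene, had 16.7, 26.2 and 20.5 CPM against 10.4, 17.1 and 10.3 CPM with DMSO, a change of 0.74 ± 0.28, and 0.82 without replicate 3. The list's median log2 change was 0.24 with all libraries and 0.09 without that replicate. A further 8 members, among them Cyp26a1, Stra8, Cdx1 and Hoxb1, had too few reads to test. Of 13 tested anterior Hox genes and their cofactors, a class that retinoic acid sets in the embryo, 0 were called and 0 had an unadjusted p under 0.05 (edgeR), with log2 changes of up to 0.41, that of Hoxa3.

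Targets of the other RXR partners were looked at because 9-cis retinoic acid can also bind RXR. Of 23 LXR targets 14 lay above 0 and of 30 PPAR targets 16, with medians of 0.08 and 0.02, and edgeR called 0 in either list and put 0 at an unadjusted p under 0.05, or 1 PPAR target without replicate 3. Cpt1a, for the enzyme of fatty acid import into mitochondria and a PPAR target, was at 69.8, 143 and 148 CPM with 9-cis retinoic acid and 67.4, 126 and 96.5 CPM with DMSO (log2 change 0.28 ± 0.13, FDR = 0.98). The LXR target with the smallest unadjusted p was Mlxipl, for a glucose-sensing transcription factor, at a log2 change of 0.25 ± 0.15. Nr0b2, the small heterodimer partner gene and a target of the bile acid receptor, had 13.1, 31.3 and 25.8 CPM with 9-cis retinoic acid and 5.90, 21.5 and 14.7 CPM with DMSO. Its log2 change was 0.81 ± 0.20, at an unadjusted p of 0.00113 and an FDR of 0.754, and it was higher in all 3 pairs although the groups overlapped.

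**Figure D3:**
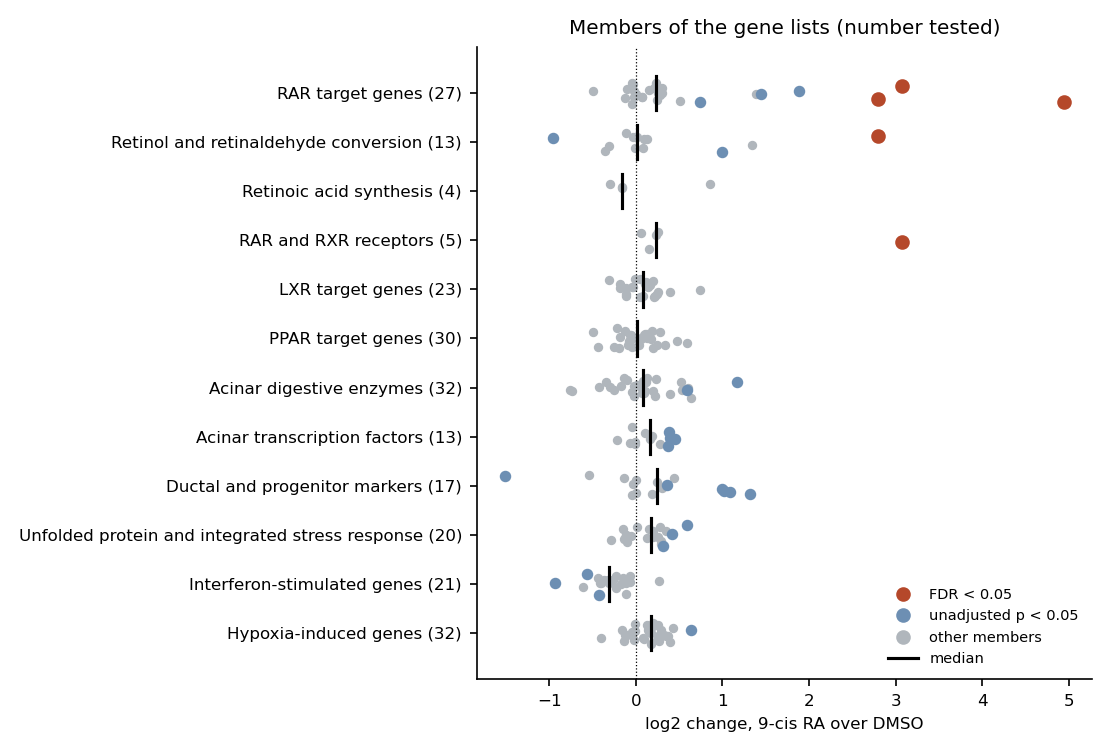
Fitted log2 change, 9-cis retinoic acid over DMSO, of each tested member of 12 gene lists, with a bar at the list's median and colours for FDR under 0.05, unadjusted p under 0.05 and other members. The called members are Cyp26b1, Dhrs3 and Rarb, the last 2 of which appear in 2 lists each, and all medians lie between -0.31 and 0.25.

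Acinar, ductal and endocrine genes held 0 calls in edgeR. Over all genes tested, 52% lay above 0, and 2.4% were higher and 1.58% lower at an unadjusted p under 0.05 (edgeR). Of 32 digestive enzyme genes 20 lay above 0, with a median log2 change of 0.08 and 2 at an unadjusted p under 0.05. Those were Pnliprp1, a lipase-related gene at 225, 219 and 270 CPM with 9-cis retinoic acid and 124, 200 and 149 CPM with DMSO, and Rnase1, at 1.38, 1.30 and 6.41 CPM against 1.06, 1.27 and 1.38 CPM with DMSO, where replicate 3 alone stands out. Without replicate 3 their unadjusted p was 0.131 and 0.739, and 0 members of the list were higher and 1 lower at an unadjusted p under 0.05 (edgeR). Of 13 acinar transcription factor genes 4 were higher at an unadjusted p under 0.05, among them Foxa3, Bhlha15 and Gata4, with log2 changes of 0.45, 0.39 and 0.38 and an FDR of 0.98 each. Without replicate 3, 2 of the list were under 0.05, and of these 3 genes only Foxa3 was (unadjusted p = 0.0323). Gata4 was at 183, 359 and 472 CPM with 9-cis retinoic acid and 165, 305 and 285 CPM with DMSO, higher in each pair.

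Ductal and progenitor genes had a median log2 change of 0.25 over 17 tested, or 0.08 without replicate 3. At an unadjusted p under 0.05 (edgeR), 5 were higher and 1 lower, against 2.4% and 1.58% of all genes tested. Car2, for a carbonic anhydrase, was at 2.79, 3.36 and 6.07 CPM with 9-cis retinoic acid and 1.67, 1.60 and 2.51 CPM with DMSO (log2 change 1.02 ± 0.26, FDR = 0.921). The trefoil factor gene Tff2 had 3.36, 5.41 and 7.44 CPM against 2.96, 2.63 and 2.41 CPM with DMSO, and the mucin gene Muc1 1.82, 0.958 and 1.97 CPM against 0.760, 0.634 and 0.729 CPM. These 3 and Hes1 stayed at an unadjusted p under 0.05 without replicate 3, at lower log2 changes for Car2, Tff2 and Muc1 (0.70, 0.71 and 0.82). Krt19 did not, with a change of 1.32 that was 0.04 without it. Cftr, the chloride channel of duct cells, was the lower one, at 0.217, 0.149 and 0.257 CPM against 0.887, 0.362 and 0.427 CPM with DMSO, and its unadjusted p of 0.0431 was 0.0546 without replicate 3. Stellate and fibroblast markers summed to 199, 199 and 379 CPM with 9-cis retinoic acid and 236, 226 and 250 CPM with DMSO, a sum of which Pdgfrb alone gave 172, 174 and 342 CPM and 207, 193 and 221 CPM. Of the other markers, Pdgfra (18.2 CPM), Acta2 (7.10 CPM) and Des (5.30 CPM) were also highest in replicate 3 of 9-cis retinoic acid. So were Col3a1, Lum and Fap, at 0.598 CPM or less, whereas Col1a1, Col1a2, Dcn and Rgs5 were not. The part of these markers in the ductal values was not tested. In bulk RNA a smaller share of cells of one kind and less RNA per cell cannot be told apart. Endocrine genes lay below 0 in 10 of 12 tested, while 52% of all genes lay above 0. They were led by Isl1 (log2 change -0.70 ± 0.26, FDR = 0.98). Its unadjusted p of 0.0182 was 0.0652 without replicate 3, at a change of -0.46.

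Interferon-stimulated genes lay below 0 in 20 of 21 tested, with a median log2 change of -0.31, or -0.22 without replicate 3, and 0 called by edgeR. At an unadjusted p under 0.05 (edgeR), 3 were lower, or 4 without replicate 3. Over all genes tested 1.58% were lower at that p with all libraries, and 52% lay above 0. Ifih1, which encodes the double-stranded RNA sensor MDA5, had 4.74, 5.03 and 3.08 CPM with 9-cis retinoic acid and 8.67, 8.39 and 7.97 CPM with DMSO. Every treated library was lower, and its log2 change was -0.93 ± 0.22 (FDR = 0.742), or -0.74 without replicate 3. Ddx58, for the related sensor RIG-I, had 15.7, 18.2 and 24.6 CPM against 26.4, 26.1 and 25.5 CPM with DMSO, again without overlap. Oasl2 had 3.36, 10.3 and 9.15 CPM against 7.14, 14.9 and 9.98 CPM, where the groups overlapped but each pair was lower. The list summed to 240, 305 and 257 CPM with 9-cis retinoic acid and 292, 379 and 282 CPM with DMSO.

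Genes of the unfolded protein and integrated stress responses lay above 0 in 13 of 20, with 0 called and 3 higher at an unadjusted p under 0.05. Over all genes tested 52% lay above 0, and 2.4% were higher at that p (edgeR). The smallest p of the list was that of Trib3, a pseudokinase gene that ATF4 induces. It was at 177, 258 and 255 CPM with 9-cis retinoic acid and 118, 176 and 162 CPM with DMSO. The groups did not overlap, and the log2 change was 0.60 ± 0.13 (FDR = 0.564) and 0.60 without replicate 3. Of 18 integrin genes tested, Itga2 had the largest increase and 11 lay below 0, with Itga10 and Itga4 lower at an unadjusted p under 0.05 (log2 changes -0.71 ± 0.29 and -1.48 ± 0.65). Without replicate 3 the unadjusted p of Itga10 was 0.0743. Among 32 genes induced by low oxygen, 23 lay above 0 and 1 had an unadjusted p under 0.05. The list's median log2 change was 0.17, or -0.02 without replicate 3. That 1 gene was Car9, at 165, 46.1 and 49.9 CPM with 9-cis retinoic acid and 141, 27.6 and 26.3 CPM with DMSO. Replicate 1 was far above the rest of either group. Car9 was higher in each pair, by log2 differences of 0.23, 0.74 and 0.92 (replicates 1, 2 and 3). Its log2 change in the main fit, which has no pairing term, was 0.64 ± 0.17 (edgeR unadjusted p = 0.00188, FDR = 0.98), or 0.53 without replicate 3.

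Genes with the largest fitted changes, at an unadjusted p under 0.05 and without overlap between groups, divided by their dependence on replicate 3. Groups did not overlap in 359 genes that were higher (2.15%) and 340 that were lower (2.03%). Among the 10 largest increases by the naming rule, Cyp26b1, Tenm1, Itga2, Rarb and Dhrs3 kept log2 changes from 2.56 to 4.69 without that library. The other 5, the histone genes Hist1h4h and Hist1h3g, the muscle genes Tnni2 and Ckm, and Gngt1, had changes from 1.93 to 4.29 with it and from 0.42 to 1.39 without it. Hist1h4h was at 0.352, 0.405 and 10.6 CPM with 9-cis retinoic acid and 0.0760, 0.181 and 0.201 CPM with DMSO. Tnni2, for a troponin of fast muscle, was at 0.678, 0.617 and 7.01 CPM against 0.431, 0.513 and 0.452 CPM. Over all 38 clustered histone genes tested the median log2 change was 2.92 with replicate 3 and -0.36 without it, and over 5 rRNA-like genes it was 5.94 and -1.51. Tenm1, a teneurin gene, had 1.19, 0.703 and 2.65 CPM against 0.101, 0.0302 and 0.201 CPM with DMSO, from 4, 1 and 8 DMSO reads (log2 change 3.59 ± 0.76, FDR = 0.38).

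**Figure D4:**
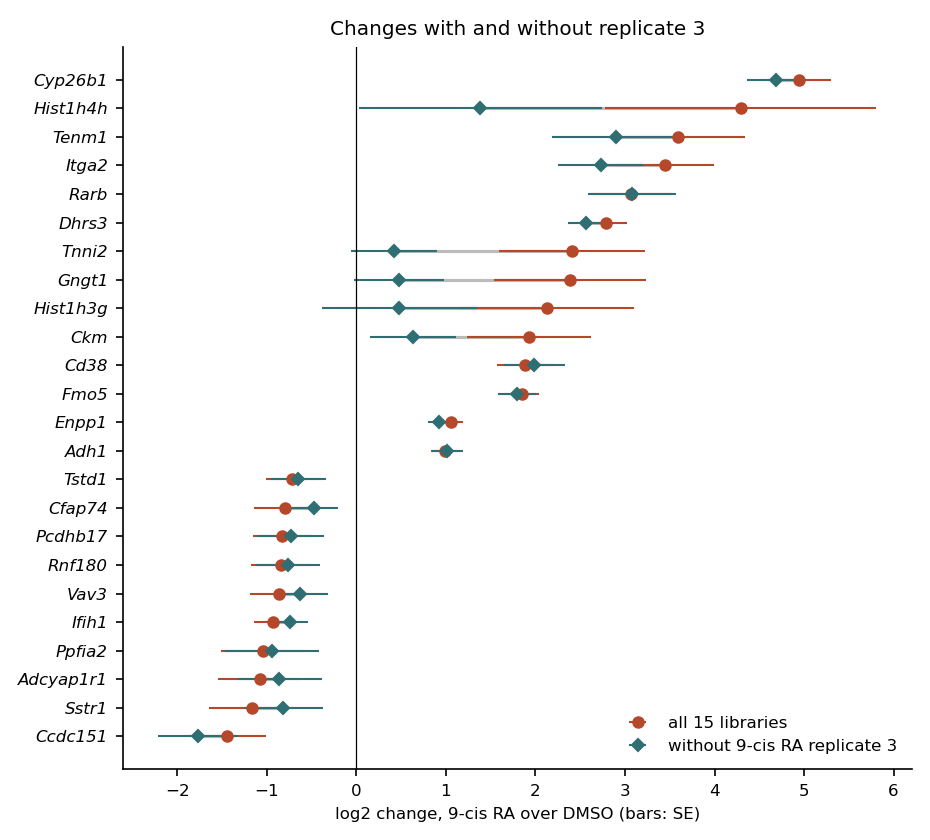
Fitted log2 changes, 9-cis retinoic acid over DMSO, with SE bars, of 24 genes in the fit of all 15 libraries (circles) and without replicate 3 of 9-cis retinoic acid (diamonds). Cyp26b1 (4.94 and 4.69), Rarb (3.07 and 3.08) and Fmo5 (1.85 and 1.79) hardly move, whereas Hist1h4h, Tnni2, Gngt1, Hist1h3g and Ckm shift towards 0.

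The 10 largest decreases by the same rule were all uncalled, with log2 changes between -1.44 and -0.72 and FDR values of at least 0.742. Ccdc151, for a protein that docks dynein arms in cilia, led them at 0.569, 0.192 and 0.684 CPM with 9-cis retinoic acid and 1.44, 1.15 and 1.01 CPM with DMSO (log2 change -1.44 ± 0.43, or -1.77 without replicate 3). The guanine nucleotide exchange factor gene Vav3 had 2.60, 2.21 and 1.03 CPM against 4.18, 3.29 and 3.54 CPM, and the protocadherin gene Pcdhb17 8.32, 9.69 and 9.07 CPM against 14.5, 14.0 and 19.9 CPM. The rest were Sstr1, Adcyap1r1, Ppfia2, Ifih1, Rnf180, Cfap74 and Tstd1. All 10 kept a negative change without replicate 3, from -1.77 to -0.47, but only Ccdc151 and Ifih1 were then at an unadjusted p under 0.05.

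9-cis Retinoic acid was then compared directly with each of the other ligand treatments, at the same time but at doses the sources do not state, with adjustment over all genes within each comparison. AM580 differs from it as a synthetic, RARα-selective compound. Against AM580, 0 genes passed in edgeR, with 241 at an unadjusted p under 0.05, or 376 without replicate 3. AM580 replicate 1 had the lowest quality weight of the 15 libraries in voom, at 0.081, and its part in this comparison was not tested. Cyp26b1 was at 16.8, 3.58 and 7.35 CPM with 9-cis retinoic acid and 6.90, 2.16 and 2.45 CPM with AM580. Every same-numbered 9-cis retinoic acid library was higher, but the difference of 1.21 had an interval from 0.62 to 1.80 and an FDR of 1. For Dhrs3 the difference was 0.30 (interval -0.15 to 0.75), for Rarb 0.51 (-0.33 to 1.35), for Fmo5 0.14 (-0.26 to 0.54) and for Enpp1 0.10 (-0.18 to 0.38). Those intervals still allow a Rarb level more than 2-fold higher with 9-cis retinoic acid. An FDR of 1 does not show that the 2 compounds act alike.

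Against CD3254, 3 genes (0.0179%) were higher with 9-cis retinoic acid and 2 (0.012%) lower. Dhrs3 was at 35.2, 17.8 and 25.5 CPM with 9-cis retinoic acid and 10.8, 3.57 and 3.31 CPM with CD3254, a log2 difference of 2.31 ± 0.22 (FDR = 0.00114). Rarb was at 3.33, 2.15 and 2.82 CPM against 0.663, 0.246 and 0.260 CPM with CD3254, a difference of 2.84 ± 0.44 at the threshold (FDR = 0.05). Cyp26b1 differed by 1.96 ± 0.28 (FDR = 0.0365), with CD3254 at 4.67, 1.43 and 1.13 CPM. Angptl4, for a secreted inhibitor of lipoprotein lipase, was at 1.95, 15.4 and 9.24 CPM with 9-cis retinoic acid and 18.5, 58.5 and 57.3 CPM with CD3254, a difference of -2.60 ± 0.34 (FDR = 0.0196). The cholesterol exporter gene Abcg1 was at 30.9, 44.5 and 43.0 CPM against 60.9, 92.0 and 89.9 CPM (-1.03 ± 0.15, FDR = 0.0365). DMSO libraries were at 1.01, 14.9 and 10.1 CPM for Angptl4 and 38.0, 42.6 and 36.4 CPM for Abcg1. The log2 changes with 9-cis retinoic acid over DMSO were 0.20 (interval -0.51 to 0.91) and -0.01 (-0.33 to 0.32), neither called. Angptl4 also varied with the library set, replicate 1 being the lowest of its group under 9-cis retinoic acid, CD3254 and DMSO. Without replicate 3 of 9-cis retinoic acid only Dhrs3 kept its call against CD3254 (FDR = 0.00241), and the other 4 had an FDR of 0.164.

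Against AM+CD, 1 gene (0.00598%) was lower with 9-cis retinoic acid and 0 higher (edgeR; at an unadjusted p under 0.05, 203 lower and 365 higher, or 608 lower and 408 higher without replicate 3). It was Cyp26b1, at 16.8, 3.58 and 7.35 CPM with 9-cis retinoic acid and 53.3, 127 and 35.5 CPM with AM+CD, a log2 difference of -3.03 ± 0.28 (FDR = 0.000574), and -3.31 without replicate 3 (FDR = 0.000712). The highest 9-cis retinoic acid library was below the lowest AM+CD library. Fmo5 differed by -0.95 ± 0.19 (FDR = 0.7) and Enpp1 by -0.42 ± 0.13 (FDR = 0.888), without a call. Rarb, at 3.71, 1.97 and 3.62 CPM with AM+CD, differed by -0.14 (interval -0.98 to 0.69), and Dhrs3, at 26.8, 54.1 and 23.5 CPM, by -0.35 (-0.80 to 0.10). The group means of Cyp26b1, Dhrs3, Rarb, Fmo5, Enpp1 and Itga2 each stood in 1 order, AM+CD highest, then 9-cis retinoic acid, AM580, CD3254 and DMSO. Adh1 followed it too, but Cd38 did not, with a mean of 4.85 CPM with AM580 and 3.84 CPM with 9-cis retinoic acid. Over DMSO, Cd38 was called with AM580 and not with 9-cis retinoic acid (edgeR FDR = 0.0734). The AM580 call was lost once replicate 3 of 9-cis retinoic acid left the shared fit. Cd38 had no called difference between AM580 and 9-cis retinoic acid. With replicate 3 of 9-cis retinoic acid left out, its means were 12.3 CPM for Fmo5 and 37.2 CPM for Enpp1. The AM580 means over all 3 libraries were 12.6 and 38.3 CPM. Leaving that library out also changes the share of the smaller set in the mean, so these means do not settle the order. Fmo5 was higher with 9-cis retinoic acid in each same-numbered library (AM580 at 8.31, 13.8 and 15.8 CPM). Enpp1 was higher in replicates 1 and 3 and lower in replicate 2 (AM580 at 33.0, 40.2 and 41.6 CPM). In that order 9-cis retinoic acid was below AM+CD by a called difference for Cyp26b1 alone, and it differed from AM580 by no called difference.

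**Figure D5:**
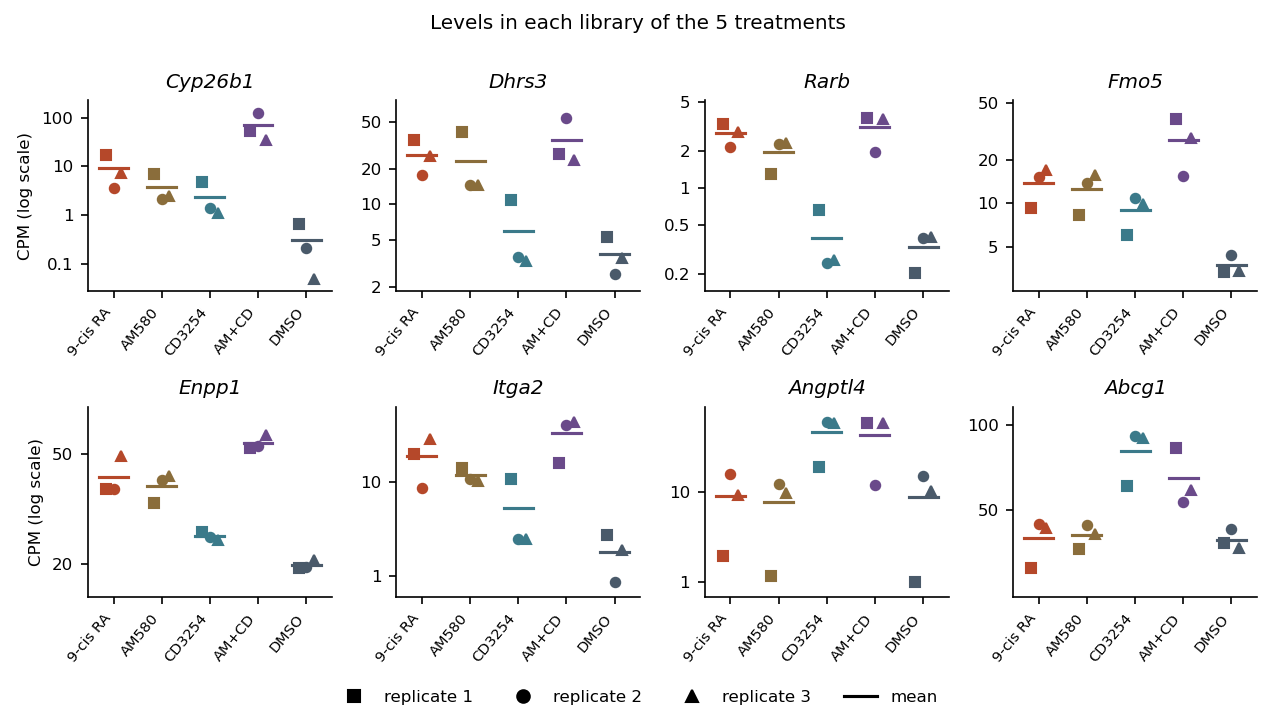
CPM on a log scale of 8 genes in every library of the 5 treatments, with a symbol per replicate and a line at the group mean. 9-cis Retinoic acid overlaps AM580 in every panel, lies below AM+CD for Cyp26b1 and Enpp1, and overlaps DMSO for Angptl4 and Abcg1, where CD3254 reaches 58.5 and 92.0 CPM.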

How the data were processed

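RNA was measured by sequencing in 15 libraries, 3 for each of 5 treatments. The authors deposited raw read counts per Ensembl gene, without normalization, in 1 table, all columns of which were used. FastQC, HISAT2 2.2.1, SAMtools 1.18, HTSeq and the build mm10 are listed, per the submitters' processing notes. Library kit, strand setting and annotation release were not given in the sources used here. Overlapping or antisense genes and near-identical copies, such as histone genes, may thus share reads. Gene coordinates are GENCODE M21 on GRCm38. Of 43432 identifiers, 42462 matched a symbol. Reads without a gene (18.1% to 63.0% of a library) stayed out of library sizes and tests.

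edgeR 4.0.16 in R 4.3.3 kept 16736 genes with filterByExpr, scaled libraries with TMM factors and fitted robust quasi-likelihood models to all 15 libraries, with treatment and library set (which side of 0 a library takes on the first component of log2 CPM with a prior count of 2) as terms and 9 residual degrees of freedom. This set comes from the counts under test. Tests were two-sided with Benjamini-Hochberg adjustment over all genes of a comparison, and the SE was derived from the F statistic. The median biological coefficient of variation was 0.193 with the set term and 0.305 without it. DESeq2 1.42.0 and limma 3.58.1 were alternatives.

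The genes, gene lists and library set were chosen with earlier results of these data known. Genes are named if called, if among the 10 largest changes each way at an unadjusted p under 0.05 with a mean of at least 1 CPM in the higher group and no overlap between groups, if Cyp26b1, Dhrs3, Rarb or Itga2, if a measured member of the short retinoid, receptor and flavin monooxygenase lists, or if among up to 4 members of another list with the smallest p. Names outside this rule (Pim3, Angptl4, Abcg1, Tgm2, Gprc5a, Krt19 and Cftr) were added after their values were seen.

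Deviations of same-numbered 9-cis retinoic acid and DMSO libraries from their group means correlated at 0.744, 0.585 and 0.388 (replicates 1, 2 and 3). Replicate numbers therefore served for the pair differences and as the replicate block of alternative fits. The main test had no such pairing term. Libraries of different number correlated from -0.552 to 0.157. Replicate 1 lay in the smaller library set in both groups and entered both group means, so the set bears on all 3 correlations. The part of that set in them was not tested. In AM+CD it was replicate 2 that lay in the smaller set. A replicate block over all treatments thus does not match AM+CD to the others by set. Libraries of 1 group differed by far more than sampling noise (chi-square per degree of freedom at least 53.6), and none was counted as a duplicate. Values of some single genes of the lists are not reported here.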

Additional observations from a re-analysis of the deposited data

Results flagged for a closer look

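Reads outside the gene counts set replicate 3 of 9-cis retinoic acid apart from the DMSO libraries. Of its reads, 63.0% were assigned to no gene and 15.1% were not aligned. In the DMSO libraries these shares were 18.1% to 23.0% and 0.915% to 1.39%, and in the other 2 libraries of 9-cis retinoic acid 19.0% to 20.4% and 0.893% to 1.15%. Their part in the results was not tested beyond leaving the library out.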

How the results depend on the processing

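The number of genes called, 5 in the analysis as reported, was 0 without the library set term, with or without replicate 3 of 9-cis retinoic acid, 3 with the replicate block in the 6 libraries (Cyp26b1 and Dhrs3 of the 5, and Itga2), 2 in the 6 libraries with the set term, 9 with no filter on low counts, 23 and 10 in DESeq2 with and without the term, and 59 in voom with quality weights, where replicate 3 of 9-cis retinoic acid had a weight of 0.217. It was 11 with that library and AM580 replicate 1 left out, an alternative chosen after seeing the data. It was 5 with the replicate block and the term in 15 libraries (Itga2 in place of Rarb), 4 in the 10 libraries of the larger set, and 5 with RLE factors, with scaling without rRNA-like and histone genes, and at a mean of at least 1 CPM. Leaving out each of the 6 libraries in turn gave 3 to 6 calls: 3 without DMSO replicate 1 or 3, where Cyp26b1, Dhrs3 and Fmo5 remained. Over 53 named genes and 20 other settings, 0 changed sign while called, 26 values lost a call and 33 gained one. The cause of these changes in calls was not tested. These 53 all had an unadjusted p under 0.05 in the main edgeR fit, rRNA-like genes left out, and this choice favours a steady sign. Outside them, Rxra went from a log2 change of 0.06 to -0.19 without replicate 3 of 9-cis retinoic acid. DMSO counts of 2 to 26 reads limit the precision for Cyp26b1 and Rarb.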
